A study of Homo sapiens with 2 samples.

Results

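The genes of protein folding and export in the endoplasmic reticulum (ER) were compared between untreated and TGFB1-treated human mesenchymal stem cells. The set holds 46 genes of the 38606 in the deposited matrix, chosen by name for their roles as ER chaperones, disulfide isomerases and oxidases, unfolded protein sensors, degradation factors, translocon and signal peptidase subunits, and carriers of transport between ER and Golgi. All 46 reached 5 CPM in at least 1 library, as did 10928 genes in all. CPM is the count of a gene's unique molecular identifiers (UMIs, each standing for a captured transcript) per 1000000 UMIs of the library or cluster it was summed over.

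The cells were commercially supplied mesenchymal stem cells from adipose tissue, grown to 90% confluency and starved overnight. One culture then received no treatment and another received transforming growth factor beta 1 (TGFB1), a secreted factor that activates fibroblasts and matrix production, at 10 ng/mL for 24 h. Each was sequenced as 1 single-cell library of polyadenylated RNA, after trypsin detachment and freezing. Both cultures carried the confluency, the starvation and the freezing; the number of donors and the passage were not given in the labels.

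Secreted and membrane proteins enter the ER through the SEC61 channel, lose their signal peptide, are folded and disulfide-bonded by resident enzymes, and leave in COPII-coated vesicles. When unfolded protein accumulates, sensors in the ER membrane, among them IRE1 (gene ERN1) and ATF6, raise the transcription of chaperones and degradation factors through XBP1 and cleaved ATF6. Stromal cells secrete large amounts of collagen and other matrix proteins along this route. Splicing of XBP1 and cleavage of ATF6 are not seen in gene counts.

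The untreated library held 8101 cells with a median of 19249 UMIs, and the TGFB1 library 12555 cells with a median of 15134. In whole libraries mesenchymal stromal markers were at 5 CPM or more for 6 of 6 genes. Their summed level was 8652 CPM in untreated cells and 10566 CPM with TGFB1. Most of that sum is COL1A1, a collagen gene, at 6862 and 9412 CPM. The other 5 summed to 1790 CPM in untreated cells and 1154 CPM with TGFB1. THY1, NT5E, PDGFRB and LUM were lower and ENG higher with TGFB1. ENG, at 6.67 and 7.85 CPM in whole libraries, was at 270 and 236 CPM in the authors' cluster 9. It was at 1.04 to 3.67 CPM in untreated clusters 1, 2 and 6 and TGFB1 clusters 0, 1, 3, 4 and 8. Of the endothelial (6), immune (7), mural (6), adipocyte (5), Schwann (4) and erythroid (2) markers, 0 reached 5 CPM in whole libraries. The lists' summed levels in whole libraries were 0.684 to 0.781 CPM for endothelial, 0.770 to 1.12 CPM for immune and 9.80 to 12.7 CPM for mural markers, and CD3E, MS4A1, ADIPOQ and S100B were at 0 in both libraries. Mural markers were concentrated in the 113 TGFB1 cells of the authors' cluster 10, where they summed to 264 CPM and 5 of 6 reached 5 CPM (MYH11 144 CPM). In the other sets of at least 50 cells they summed to 7.16 to 18.3 CPM. In cluster 9, 2 of 6 mural markers, NOTCH3 and MCAM, reached 5 CPM in both libraries. So did 1 of 6 endothelial markers there, TEK, at 7.11 CPM in untreated cells and 9.60 CPM with TGFB1. Without clusters 7, 9 and 10, 13 of the 46 genes described next were 1.5-fold higher with TGFB1, as with them. Of all genes 8.67% were higher without those clusters. Of 5 epithelial markers KRT18 and KRT19 reached 5 CPM, in opposite directions. KRT18 was at 35.1 CPM in untreated cells and 80.2 CPM with TGFB1, and KRT19 at 675 and 191 CPM. Their list summed to 712 CPM in untreated cells and 274 CPM with TGFB1, EPCAM being at 0.0355 and 0.0478 CPM. The cycling markers MKI67 and TOP2A summed to 77.8 CPM in untreated cells and 20.5 CPM with TGFB1. With 1 library per condition no difference could be tested: each interval below is a 95% interval for counting error, and it compares these libraries, not the conditions. The part of depth, cell cycle and culture in each difference was not tested, except where a value without those cells is given.

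The set as a whole stood higher in the TGFB1 library. Summed over the 46 genes, the level was 9643 CPM in untreated cells and 11903 CPM with TGFB1, a ratio of 1.23 (1.232 to 1.237). Of the 46 genes, 13 (28.3%) were at least 1.5-fold higher with TGFB1, where 8.45% of the 10928 genes were. At least 1.5-fold lower stood 0 of the 46, where 14.2% of all genes did. The log2 ratio was above 0 for 38 genes and below 0 for 8, with a median of 0.24 beside -0.10 over all genes. By CPM, CREB3L2 and DNAJB9 alone passed 2-fold higher, 2 of 46 genes, where 3.61% of all genes did. At that fold the set stood near the share of all genes. The ratios depend on how the libraries are scaled: factors from the trimmed mean of M values (TMM) shift every log2 ratio up by 0.155, and median-of-ratios factors by 0.191. After these shifts 18 and 19 genes passed 1.5-fold higher, where 11.8% and 13.0% of all genes did. Again 0 passed lower, where 9.75% and 8.92% of all genes did. Closest to the threshold were KDELR3 at 1.51-fold on the inside and MANF at 1.44-fold on the outside.

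**Figure D1:**
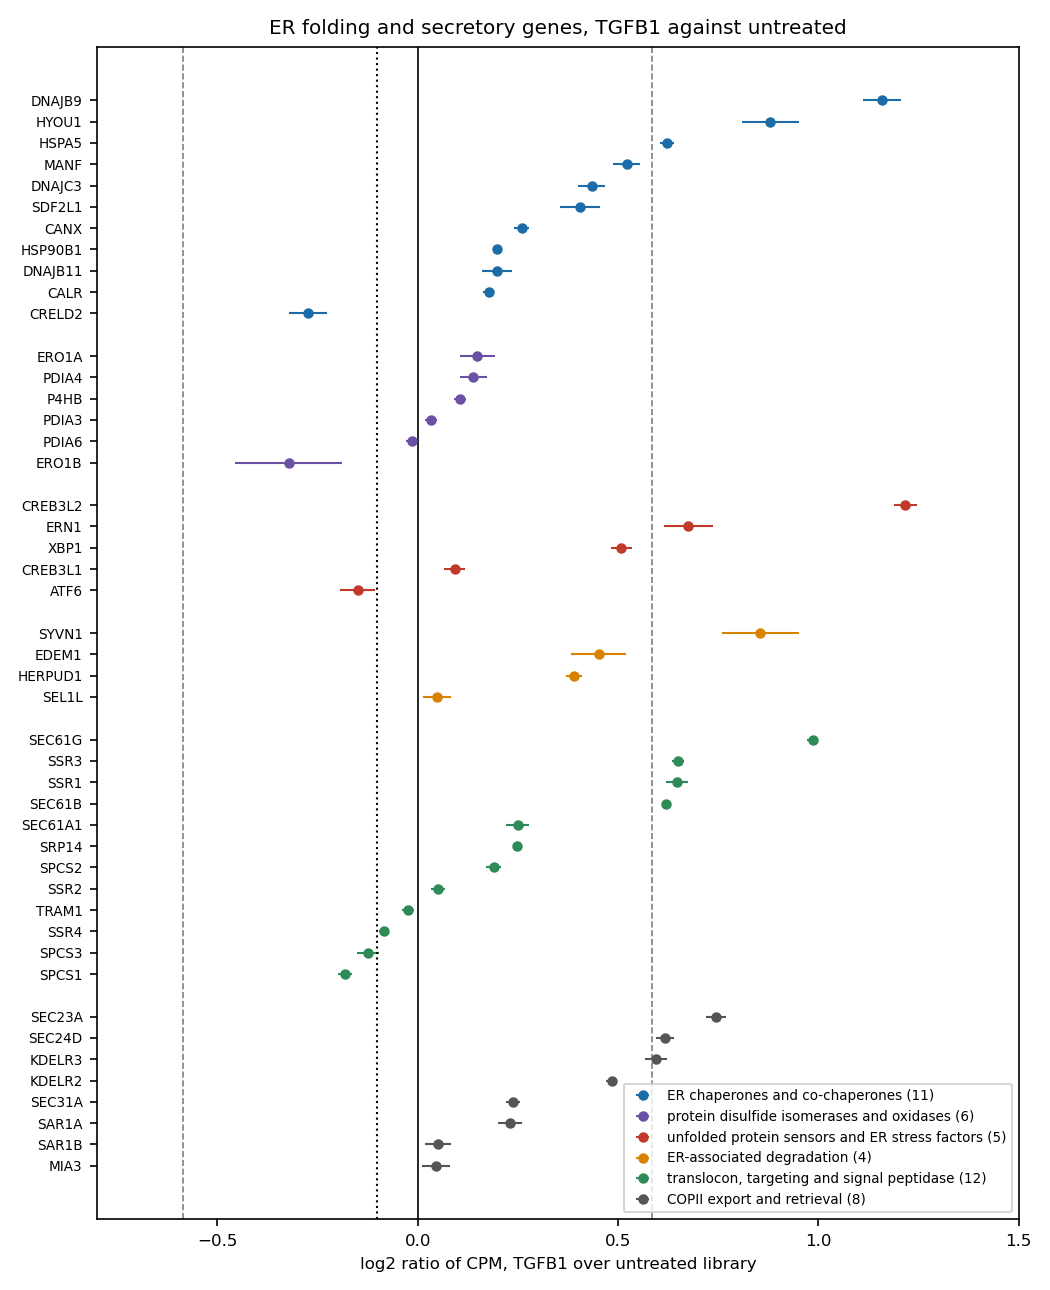
Log2 ratio of CPM, TGFB1 over untreated, for the 46 genes in 6 groups by role (colours, with the number of genes in the legend). Points are ratios of whole libraries and bars 95% counting intervals; dashed lines mark 1.5-fold, the dotted line the median of all genes (-0.10). DNAJB9 and CREB3L2 lie farthest to the right, at 1.16 and 1.22, and ERO1B farthest to the left, at -0.32.

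Among the 11 chaperones and co-chaperones, which hold nascent proteins in solution and help them fold, 3 were 1.5-fold higher and the median log2 ratio was 0.41. HSPA5, the ATP-driven HSP70 chaperone of the ER lumen also called BiP, was at 246 CPM in untreated cells and 378 CPM with TGFB1, a ratio of 1.54 (1.52 to 1.56). DNAJB9 (chr7:108569568-108574850, plus strand, GRCh38, GENCODE release 29), a co-chaperone that brings BiP to IRE1 and to misfolded proteins, was at 29.8 CPM in untreated cells and 66.6 CPM with TGFB1, a ratio of 2.23 (2.16 to 2.31). HYOU1, a large HSP70-related protein that exchanges the nucleotide of BiP, was at 13.3 CPM and 24.4 CPM, a ratio of 1.84 (1.75 to 1.94). These 3 are BiP or partners of it, but other partners did not pass 1.5-fold. Among them were DNAJC3 and DNAJB11, given below. Outside the set SIL1, DNAJC1 and DNAJC10, named after their values were seen, had ratios of 0.945, 1.17 and 1.26.

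The other genes of the chaperone group differed less. HSP90B1, the HSP90 of the ER, was at 936 CPM in untreated cells and 1073 CPM with TGFB1, a ratio of 1.15. The lectin chaperones of glycoproteins, CALR and CANX, had ratios of 1.13 and 1.20. Of the remaining members DNAJC3, a co-chaperone of BiP, had a ratio of 1.35, SDF2L1, a partner of the ER J-proteins, 1.32, MANF, a small secreted protein of the stress response, 1.44, and DNAJB11, another J-protein, 1.15. CRELD2, an ER-resident stress-response protein, was the only chaperone-group gene below 1, at 40.4 CPM in untreated cells and 33.4 CPM with TGFB1, a ratio of 0.827 (0.800 to 0.855). Of 33 other ER folding factors, 32 reached 5 CPM (CDNF did not) and 4 were 1.5-fold higher, 0 lower, with a median log2 ratio of 0.05. These were FKBP2 at 2.21-fold and FKBP14 at 1.64-fold, both prolyl isomerases, and the thioredoxin-like TXNDC5 at 1.66-fold and TXNDC11 at 1.51-fold. FKBP2 was at 3.92 CPM in untreated cells and 8.68 CPM with TGFB1, so it reached 5 CPM only in the library where it was higher.

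The promoters of several chaperones hold the ER stress response element (ERSE), to which ATF6 binds together with the factor NF-Y in the textbook account. It was searched as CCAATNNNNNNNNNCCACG on both strands of RefSeq promoter windows of 300 bases, 250 before and 50 after each start (GRCh38.p14). Of the 46 genes, 41 were in that table with 56 promoters; KDELR2, PDIA3, SEC24D, SPCS1 and TRAM1 were not. The element was in 10 of the 56 promoters (17.9%) and in 27 of all 35116 (0.0769%). It was in 0 of 171 promoters of the companion genes, and the members were chosen partly as known genes of this response. The sequences below, 5′ to 3′ on the strand of the gene, carry the matched letters in capitals. They are shown because the same letters precede RefSeq starts of genes with different ratios. HSPA5 (chr9:125241371-125241429, minus strand) and XBP1 (chr22:28800583-28800641, minus strand) had ratios of 1.54 and 1.42. HSP90B1 (chr12:103930196-103930254, plus strand), CALR (chr19:12938364-12938422, plus strand), PDIA6 (chr2:10812833-10812891, minus strand) and CRELD2 (chr22:49918534-49918592, plus strand) had ratios of 1.15, 1.13, 0.990 and 0.827; in CALR and CRELD2 the element reads on the opposite strand.
HSPA5: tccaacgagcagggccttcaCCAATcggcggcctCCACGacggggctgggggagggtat
XBP1: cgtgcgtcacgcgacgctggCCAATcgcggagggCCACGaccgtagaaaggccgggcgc
HSP90B1: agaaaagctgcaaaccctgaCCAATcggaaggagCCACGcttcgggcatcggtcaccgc
CALR: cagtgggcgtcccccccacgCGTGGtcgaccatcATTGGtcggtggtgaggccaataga
PDIA6: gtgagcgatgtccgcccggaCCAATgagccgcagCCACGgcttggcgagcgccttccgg
CRELD2: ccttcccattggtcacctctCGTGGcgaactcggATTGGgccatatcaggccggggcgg

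Across the 8 genes with the element (these 6, CANX and ERO1B), HSPA5 alone passed 1.5-fold, and their median log2 ratio was 0.19. A match is a description of the letters and not of binding, and over all measured genes with a listed promoter 15 had the element, 2 of them 1.5-fold higher and 1 lower.

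A shorter form, ERSE-II (ATTGGNCCACG), and the unfolded protein response element of the XBP1 and ATF6 factors (UPRE, TGACGTGG) were searched the same way. ERSE-II was in 19 of the 35116 promoters (0.0541%) and in those of HERPUD1, HYOU1 and SDF2L1. UPRE was in 256 (0.729%), in 18 of 171 companion promoters (10.5%) and in 5 of the 56 member promoters (8.93%), those of HYOU1, KDELR3, SEC23A, SSR3 and SSR4. Of these 5 genes, 4 were 1.5-fold higher with TGFB1 and SSR4 was not, with a ratio of 0.943. Over all measured genes with a listed promoter, 122 held UPRE, of which 24 (19.7%) were 1.5-fold higher and 9 lower. Shown, as genes with ratios of 1.31 to 1.84, are the windows of HERPUD1 (chr16:56932005-56932055, plus strand) and HYOU1 (chr11:119057360-119057410, minus strand) with ERSE-II on the opposite strand in HYOU1, and of KDELR3 (chr22:38468030-38468077, plus strand) and SSR3 (chr3:156554139-156554186, minus strand) with UPRE on the opposite strand. In HYOU1 a UPRE overlaps the ERSE-II shown. The SEC23A match spans the start and is not shown. The SSR4 match, also not shown, lies within the GENCODE span of its gene. So do the shown windows of SSR3, HSP90B1, PDIA6 and CRELD2, and those of XBP1, HERPUD1 and KDELR3 reach into it.
HERPUD1: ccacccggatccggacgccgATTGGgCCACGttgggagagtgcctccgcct
HYOU1: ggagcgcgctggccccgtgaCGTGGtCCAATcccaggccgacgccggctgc
KDELR3: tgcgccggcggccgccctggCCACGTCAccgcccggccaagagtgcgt
SSR3: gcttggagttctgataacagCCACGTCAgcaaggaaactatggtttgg

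The 6 protein disulfide isomerases and oxidases, which form and rearrange disulfide bonds, were nearly level between the libraries. Their summed level was 1264 CPM in untreated cells and 1308 CPM with TGFB1, a ratio of 1.03, and 0 of 6 passed 1.5-fold in either direction. P4HB, an isomerase that is also a subunit of the collagen prolyl 4-hydroxylase, was at 375 CPM and 403 CPM. PDIA3, the isomerase that works with CALR and CANX, was at 364 CPM and 373 CPM, and PDIA6 at 408 CPM and 404 CPM. PDIA4 and the oxidase ERO1A, which passes electrons from the isomerases to oxygen, had ratios of 1.10 and 1.11. ERO1B, its paralogue, lay near the minimum level at 5.41 CPM in untreated cells and 4.33 CPM with TGFB1, a ratio of 0.800 (0.729 to 0.878). The chaperone and isomerase groups thus had summed ratios of 1.22 (1.217 to 1.227) and 1.03 (1.029 to 1.040), whose counting intervals do not meet.

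Of the 5 sensors and ER stress factors, 2 were 1.5-fold higher and the group's summed ratio, 1.42, was the highest of the 6 groups. The sums were 388 CPM in untreated cells and 550 CPM with TGFB1, and CREB3L2, given next, makes up most of that difference. CREB3L2 (chr7:137874979-138002067, minus strand, GRCh38, GENCODE release 29), a membrane-bound transcription factor that is cut free in the Golgi and drives secretory genes, was at 73.9 CPM in untreated cells and 172 CPM with TGFB1, a ratio of 2.33 (2.28 to 2.37). This was the highest ratio of the 46 genes. ERN1, the sensor kinase and ribonuclease IRE1, was at 19.5 CPM and 31.2 CPM, a ratio of 1.60 (1.53 to 1.67). XBP1, whose messenger RNA IRE1 splices, was at 114 CPM and 163 CPM, a ratio of 1.42 (1.40 to 1.45), under the threshold.

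The other sensors did not follow these. ATF6 was at 47.9 CPM in untreated cells and 43.1 CPM with TGFB1, a ratio of 0.901 (0.874 to 0.929). CREB3L1, a paralogue of CREB3L2 known for collagen secretion in bone, was at 133 CPM and 142 CPM, a ratio of 1.07. Of 15 other unfolded protein response genes, 1 was 1.5-fold higher and 1 lower: CHAC1, a glutathione-degrading enzyme, at 20.2 CPM and 41.9 CPM, and CREBRF, a regulator of the CREB3 family, at 56.8 CPM and 34.5 CPM. In the branch of the sensor kinase PERK, named after the values were seen, EIF2AK3 (PERK itself) had a ratio of 1.09, its downstream factor ATF4 1.01 and DDIT3, a later target, 0.717 (63.0 CPM in untreated cells and 45.2 CPM with TGFB1). Other targets of that branch, named in the same way, did not share a direction. TRIB3 had a ratio of 1.02, SESN2 1.34 and PPP1R15A 0.758 (0.732 to 0.785), beside 2.08 for CHAC1. ATF6 was lower by CPM and not with TMM or median-of-ratios factors.

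The 4 degradation genes act on proteins that fail to fold. SYVN1 (chr11:65121780-65134533, minus strand, GRCh38), the ubiquitin ligase also called HRD1, was at 7.65 CPM in untreated cells and 13.8 CPM with TGFB1, a ratio of 1.81 (1.69 to 1.93). SEL1L, which holds SYVN1 in its complex, was at 72.2 CPM and 74.6 CPM, a ratio of 1.03. HERPUD1, a membrane protein of the same complex, was at 188 CPM and 247 CPM, and EDEM1, which trims mannose from doomed glycoproteins, at 16.3 CPM and 22.3 CPM, ratios of 1.31 and 1.37. The ligase was thus higher while its scaffold was nearly level. Of 18 other degradation genes 17 reached 5 CPM (DERL3 did not) and 2 were 1.5-fold higher, 0 lower. These were UBE2J1, an ER-anchored ubiquitin-conjugating enzyme, at 53.3 CPM and 112 CPM, and SELENOS, a selenoprotein of the retrotranslocation machinery, at 107 CPM and 198 CPM.

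Among 12 genes of the translocon, targeting and signal peptidase, 4 were 1.5-fold higher and the subunits of single complexes diverged. Of the SEC61 channel, SEC61G (chr7:54752250-54759974, minus strand, GRCh38) was at 384 CPM in untreated cells and 760 CPM with TGFB1, a ratio of 1.98 (1.96 to 2.00). SEC61B was at 552 CPM and 848 CPM, a ratio of 1.54 (1.53 to 1.55). SEC61A1, the pore-forming subunit, was at 95.6 CPM and 114 CPM, a ratio of 1.19 (1.17 to 1.21). The small subunits were therefore further from 1 than the pore, with intervals that do not meet. SEC61B is the gene among the 13 that was under 1.5-fold in another setting, with a log2 ratio of 0.57 when every cell was weighted equally.

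The translocon-associated complex, which helps some signal peptides into the channel, split in the same way. SSR1 was at 95.2 CPM in untreated cells and 149 CPM with TGFB1 and SSR3 at 328 CPM and 515 CPM, both with a ratio of 1.57. SSR2 was at 258 CPM and 267 CPM, a ratio of 1.04, and SSR4 at 565 CPM and 532 CPM, a ratio of 0.943 (0.935 to 0.951). In the signal peptidase, which cuts the signal peptide off, SPCS1, SPCS2 and SPCS3 had ratios of 0.882, 1.14 and 0.918. SRP14, a protein of the signal recognition particle that brings ribosomes to the channel, had a ratio of 1.19, and TRAM1, a membrane protein beside the channel, 0.984. SPCS1, SPCS3, SSR4 and TRAM1 turned to higher with TGFB1 under at least 1 other setting, as did PDIA6 and ATF6, and CREB3L1 turned to lower. Of 16 other translocon and targeting genes 3 were 1.5-fold higher and 0 lower: HSPA13 at 1.82-fold, TRAM2 at 1.57-fold and SRPRB, a subunit of the signal recognition particle receptor, at 1.52-fold.

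All 8 genes of COPII export and retrieval had ratios above 1, and 3 passed 1.5-fold. SEC23A, a subunit of the inner coat, was at 106 CPM in untreated cells and 177 CPM with TGFB1, a ratio of 1.68 (1.65 to 1.71). SEC24D, its partner that binds cargo, was at 142 CPM and 218 CPM, a ratio of 1.53 (1.51 to 1.56). SEC31A, of the outer coat, was at 277 CPM and 327 CPM, a ratio of 1.18 (1.16 to 1.19). Other subunits of the coat were named after their values were seen. The inner-coat SEC23B, SEC24A, SEC24B and SEC24C had ratios of 1.83, 1.44, 1.15 and 1.19, and the outer-coat SEC13 1.22. The ratios of the layers thus overlapped, although the highest were of the inner coat.

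The GTPases that start the coat, SAR1A and SAR1B, had ratios of 1.17 and 1.04, and MIA3, the receptor that loads bulky collagen, was at 66.1 CPM and 68.3 CPM, a ratio of 1.03 (1.01 to 1.06). The receptors that return escaped chaperones from the Golgi, KDELR2 and KDELR3, were at 402 and 95.4 CPM untreated and at 562 and 144 CPM with TGFB1, ratios of 1.40 and 1.51. Of 32 other COPII and ER-to-Golgi genes 31 reached 5 CPM (SEC31B did not), and SEC23B, the paralogue of SEC23A, at 1.83-fold and the fusion protein YKT6 at 1.66-fold were 1.5-fold higher, with 0 lower. Of 12 genes of the COPI retrograde coat, COPA passed at 1.51-fold, and of 19 genes of N-glycosylation 0 passed in either direction. Over all 145 companion genes, of which 142 reached 5 CPM, 13 (9.15%) were 1.5-fold higher and 1 lower, with a median log2 ratio of 0.10, against 28.3% and 0.24 in the 46. The companions' share higher was near the 8.45% of all genes, of which 14.2% were lower. Members and companions were chosen with earlier results of these data known.

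The difference was also seen per cell at equal depth. Each cell was thinned to 7500 UMIs, which kept 7646 untreated and 9330 TGFB1 cells and left out 455 and 3225 shallower ones. The median cell then held 71 UMIs of the 46 genes untreated and 88 with TGFB1. For chaperones the medians were 15 and 20, for translocon genes 32 and 39, for COPII and retrieval genes 9 and 12, and for sensors 3 and 4. For isomerases and oxidases both medians were 9 and the means 9.36 and 9.76. For degradation genes both medians were 2, but the means were 2.15 and 2.69. The distributions overlapped widely, with the middle 50% of cells at 60 to 82 UMIs untreated and 77 to 100 with TGFB1 for the whole set.

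**Figure D2:**
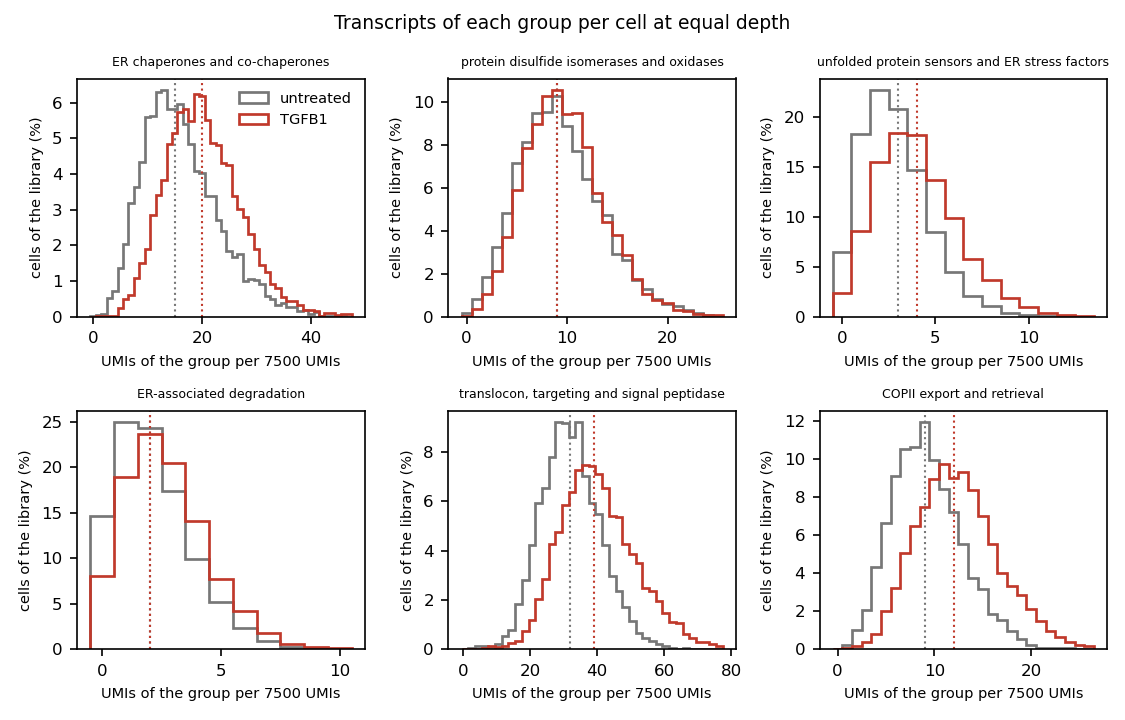
Percent of each library's cells by the number of UMIs of a group of genes per cell, after thinning each cell to 7500 UMIs (grey untreated, red TGFB1; dotted lines are medians; the translocon panel has bins of 2 UMIs). The curves for isomerases and oxidases lie on each other, with medians of 9, and those for chaperones and COPII genes are shifted to the right with TGFB1.

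Shares of cells with at least 1 UMI were compared on the same thinned cells. For DNAJB9 the share was 19.0% (interval 18.1 to 19.9) in the untreated library and 38.5% (37.5 to 39.5) in the TGFB1 library, and 41.1% and 56.2% without thinning. For CREB3L2 it was 36.9% and 65.4%, and 62.2% and 77.0% without thinning. For HSPA5 it was 79.7% and 90.9%, but 92.7% and 92.6% without thinning, where the untreated cells were deeper. Thinned, 41 of 46 genes had a higher share with TGFB1, and not thinned, 11 of 46. The same count was not made over all genes, so these counts cannot be read as particular to the set. No cell type here lacks these genes, so the share that free RNA alone would give could not be measured.

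The authors' 11 clusters, numbered 0 to 10, were mostly filled by 1 library each. Sets of at least 50 cells were 5 in the untreated library (clusters 1, 2, 6, 7 and 9) and 9 in the TGFB1 library (clusters 0, 1, 3, 4, 5, 7, 8, 9 and 10). The clusters were made from these same cells and genes, so their levels are a description. Summed over the 46 genes, levels ran from 8771 to 10531 CPM in the untreated sets and from 9112 to 12979 CPM in the TGFB1 sets. The ranges overlapped, and the lowest TGFB1 set was the 56 cells of cluster 1. Cluster 5, with a median of only 2571 UMIs, was at 12161 CPM.

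SYVN1 alone had TGFB1 sets (10.5 to 17.4 CPM) that all lay above the untreated sets (7.03 to 9.20 CPM), 1 of 46 genes where 0.833% of all genes did. The intervals of its smallest sets overlap, with 16 UMIs in untreated cluster 9 (4.65 to 13.2 CPM) and 13 in TGFB1 cluster 1 (6.20 to 19.9 CPM). For 0 of 46 genes did all TGFB1 sets lie below, where 0.961% of all genes did. CREB3L2 ranged most among the untreated sets, and next to ERO1B among the TGFB1 sets. In the untreated sets it was at 43.8 CPM in cluster 2, 67.2 in cluster 7, 72.9 in cluster 1, 78.2 in cluster 9 and 159 in cluster 6. In the TGFB1 sets it was lowest in clusters 1 and 4, at 91.3 and 103 CPM, and highest in clusters 3 and 8, at 228 and 299 CPM. Clusters 6 and 8 are those of dividing cells, with an MKI67 or TOP2A UMI in 86.6% and 80.2% of cells, so the highest set of each library was a cycling one.

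DNAJB9 ran the other way. Its lowest sets were the cycling ones in both libraries, 17.1 CPM in untreated cluster 6 and 37.6 CPM in TGFB1 cluster 8, and its highest were 47.8 CPM in untreated cluster 7 and 80.1 CPM in TGFB1 cluster 4. HERPUD1 was also lowest among the untreated sets in cluster 6, at 115 CPM against 179 to 243 CPM in the others. SSR3 was highest in the same cycling sets, at 501 and 783 CPM. SPCS3 stood out in untreated cluster 7, at 247 CPM against 103 to 140 CPM in the other untreated sets.

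**Figure D3:**
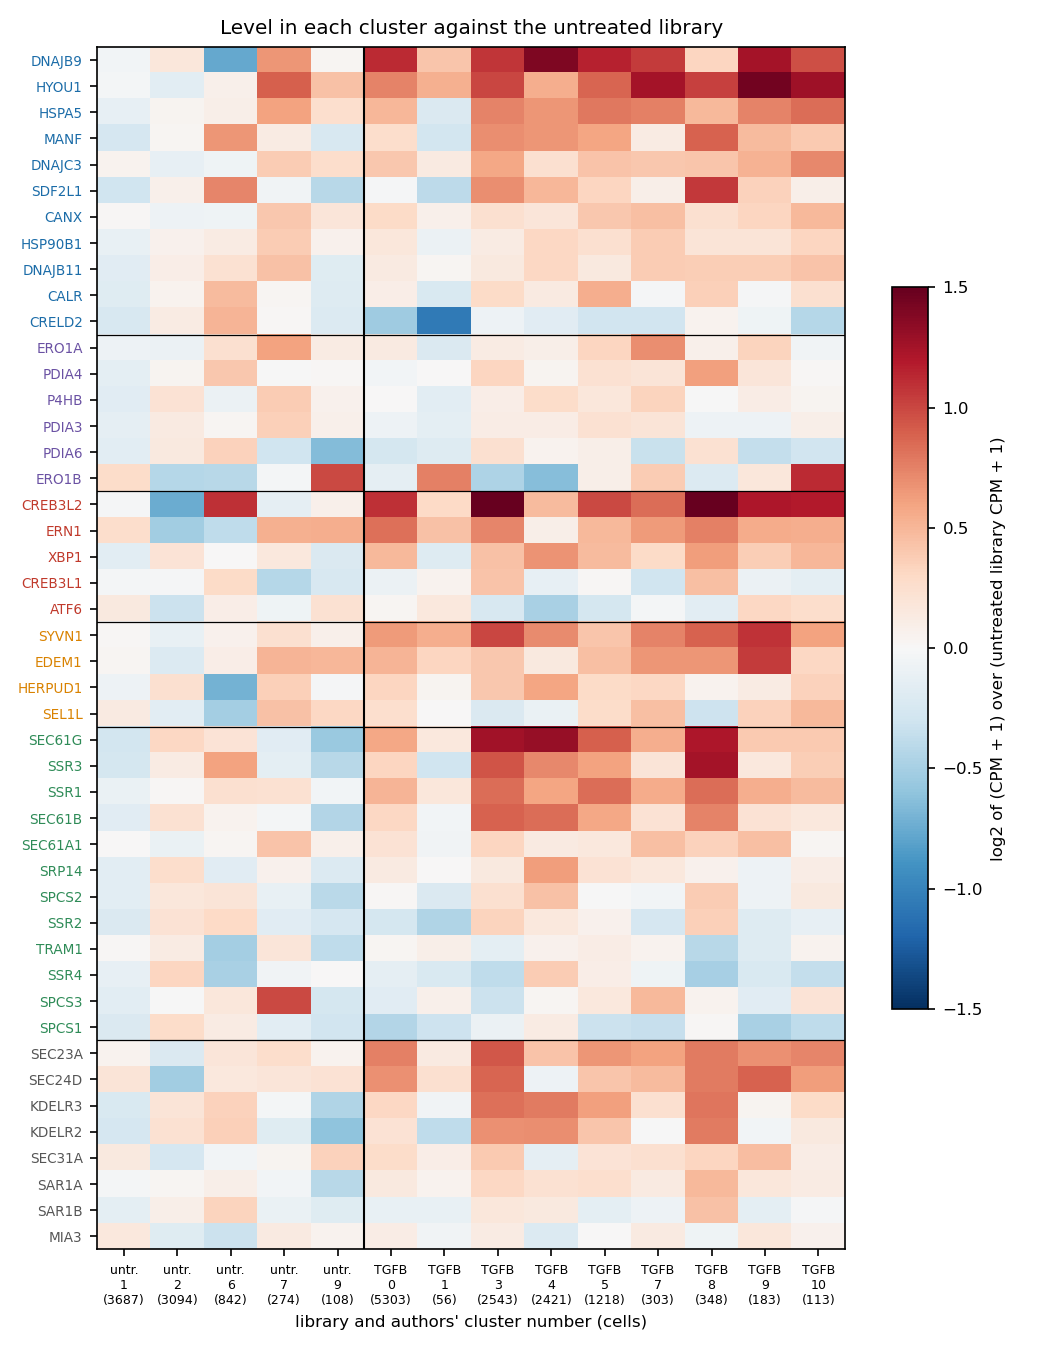
Level of each gene (rows, coloured by role) in each set of at least 50 cells (columns, library, authors' cluster number and cells in parentheses; TGFB stands for TGFB1), as log2 of CPM plus 1 over the untreated library. Colours stop at 1.5, which CREB3L2 passes in TGFB1 clusters 3 and 8 (228 and 299 CPM). The line parts untreated from TGFB1 sets.

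The same contrast appeared when cells were divided by cycling transcripts at equal depth, within each library. Most cells of clusters 6 and 8 hold such a transcript. This division therefore shares cells with those clusters and is not a separate observation. In untreated cells with an MKI67 or TOP2A UMI (894, against 6752 without), CREB3L2 was at 145 CPM against 61.7, MANF at 105 against 63.4 and SDF2L1 at 45.2 against 29.4. DNAJB9 was at 18.6 CPM against 30.3 and HERPUD1 at 129 against 199. In the TGFB1 library (489 cells with, 8841 without) the ratios were 1.66 for CREB3L2, 1.24 for MANF, 1.46 for SDF2L1, 0.749 for DNAJB9 and 0.814 for HERPUD1, on the same sides of 1. ERN1 had ratios on opposite sides, 0.668 untreated and 1.23 with TGFB1. The summed level of the 46 differed little, with ratios of 1.07 and 1.03. Without these cells 14 of the 46 genes were 1.5-fold higher between the libraries, where 8.81% of all genes were.

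Only clusters 1, 7 and 9 held at least 50 cells of both libraries, and the difference between libraries was not alike in them. The clusters were made from these same cells and genes, so ratios inside a cluster describe cells already grouped by likeness. In cluster 1, with 3687 untreated and 56 TGFB1 cells, 2 of 46 genes were 1.5-fold higher, where 6.42% of genes were, and 1 lower, where 6.87% were. Those higher were HYOU1 and SYVN1, whose intervals include 1, and the lower was CRELD2. The members' median log2 ratio there was 0.04. In cluster 7, with 274 and 303 cells, 2 of 46 were higher, where 5.03% of genes were, and 0 lower, where 4.95% were. These were CREB3L2 at 67.2 CPM in untreated cells and 133 CPM with TGFB1 and SEC61G at 341 and 559 CPM. Chaperones summed to 2778 and 2825 CPM in cluster 7, so they were nearly level there, and already above the whole untreated library's 2206 CPM.

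In cluster 9, with 108 and 183 cells, 13 of 46 genes were higher, where 9.69% of genes were, and 1 lower, where 17.8% were. DNAJB9 was at 30.5 and 72.2 CPM, a ratio of 2.37 (1.78 to 3.20), CREB3L2 had a ratio of 2.20, HYOU1 2.07 and SEC61G 1.94. SDF2L1, MANF, XBP1, SYVN1, SEC61B, SSR1, SEC23A, SEC24D and SAR1A were the others, and ERO1B was the gene that was lower, with an interval that includes 1. ERN1, 1.60-fold higher in whole libraries, had ratios of 1.14, 1.07 and 1.01 in clusters 1, 7 and 9, each with an interval that includes 1. CREB3L2, DNAJB9, SEC61B, SEC61G, SSR1 and SRP14 were above 1 in all 3 clusters, with intervals that leave out 1. Whether the clusters differ in this was not tested.

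**Figure D4:**
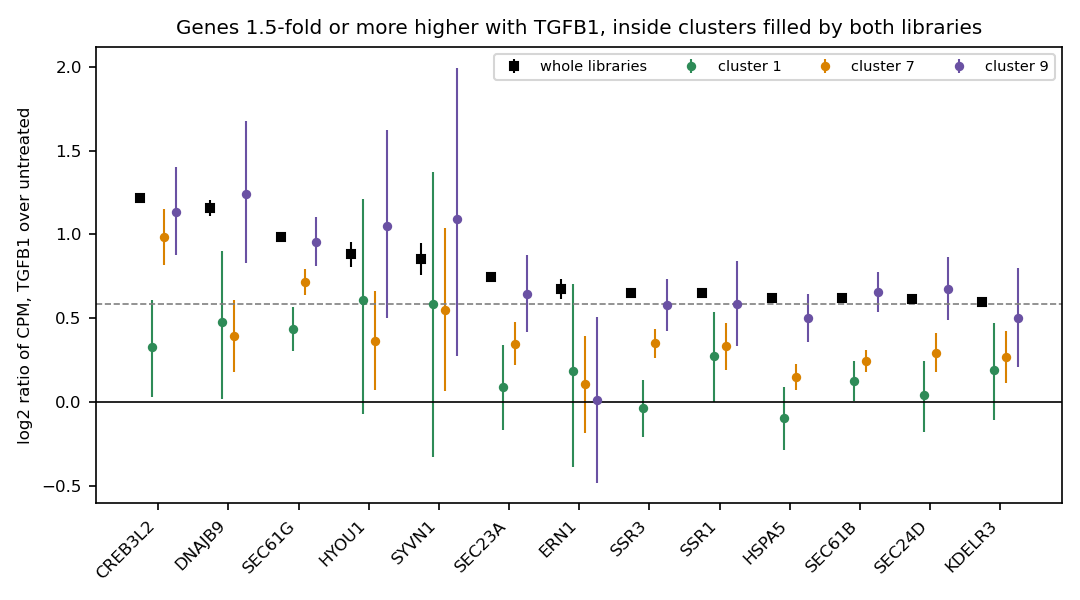
Log2 ratio of CPM, TGFB1 over untreated, for the 13 genes at least 1.5-fold higher, in whole libraries (black squares) and inside the clusters filled by both libraries (coloured points). Bars are 95% counting intervals and the dashed line is 1.5-fold; cluster 1 lies below the whole-library value for every gene, and ERN1 lies near 0 in cluster 9.

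Across the 14 sets some genes varied together, as Pearson correlations of log2(CPM + 1) that share libraries and depth and carry no test. SEC61B and SEC61G had a correlation of 0.984, the retrieval receptors KDELR2 and KDELR3 0.971, SSR3 and KDELR2 0.961, and SDF2L1 and MANF 0.947. HSPA5 was closest to CANX, at 0.852, and DNAJB9 to HERPUD1, at 0.865. CREB3L2 was closest to SEC23A, at 0.877. The highest for SSR4 was 0.598, with SRP14. Within role groups the median pairwise correlation was 0.496 for COPII export and retrieval, 0.485 for the chaperones and -0.03 for the isomerases and oxidases.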

How the data were processed

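The authors deposited a matrix of raw UMI counts, holding 38606 genes and 20656 cells of 2 libraries, and a cell table with counts of UMIs and genes, the percent of mitochondrial UMIs, the library and the cluster number. Cell sums of the matrix equalled the table's totals in all 20656 cells. The submitters' processing notes list GRCh38, Seurat and Cell Ranger 9.0.1, with no roles. Which annotation was used is not given in these sources. Mitochondrial transcripts had medians of 2.66% and 2.49%, no cell had fewer than 502 genes, and 18 barcodes occurred in both libraries. No doublet caller was run, and doublets, if present, remained.

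UMIs were summed per library, or per library and cluster of at least 50 cells, and divided by the total (169011524 untreated, 208991941 TGFB1) to give CPM. A gene counted as measured from 5 CPM in either library or set, and as higher or lower from a ratio of 1.5. Ratios carry exact conditional binomial, sums exact Poisson and shares exact binomial 95% intervals, for counting error only. With 1 library per group no test was made, and cells were not used as replicates. All 46 genes were named, and of the companion lists those past 1.5-fold, up to 6 per list; the members, lists and roles were chosen with earlier results of these data known. ERSE-II, UPRE and the promoters of genes under 1.5-fold were added after seeing the files. Reads shared with near-identical or antisense genes could not be assessed.

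The calculation was tested on simulated data. edgeR 4.0.16 (R 4.3.3) gave TMM factors (1.06 and 0.948) only. Other steps used scipy 1.17.1, numpy 2.4.6, pandas 2.3.3 and matplotlib 3.10.9 under Python 3.11.15. Alternatives were other scalings, equal weight per cell, thinning to 7500 or 5000 UMIs, a minimum of 1 or 20 CPM, a fold of 2, cells with 2000 genes or more, and leaving out cluster 5, clusters 7, 9 and 10, or cells with an MKI67 or TOP2A UMI. Cells of 10000 to 20000 UMIs, and cells whose barcode occurred in 1 library, were added after seeing the data.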

Additional observations from a re-analysis of the deposited data

How the results depend on the processing

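The number of genes at least 1.5-fold higher with TGFB1 was 13, and 12 to 19 under the alternatives at that fold. Of all genes 8.41% to 13.0% were higher under those alternatives. At a fold of 2, 2 of the 46 passed, where 3.61% of all genes did. The number lower was 0 under each alternative run, where 8.92% to 18.5% of all genes were lower at 1.5-fold and 6.05% at a fold of 2. The median log2 ratio of the 46 genes, 0.24, came to 0.43 under median-of-ratios scaling, 0.40 under TMM scaling, 0.28 with equal weight per cell and 0.27 in cells of 10000 to 20000 UMIs, the last chosen after seeing the data. Over all genes the median, -0.10, came to 0.09, 0.06, -0.09 and -0.11 in the same order. Of the 13 genes, 12 stayed at 1.5-fold or more in all 10 alternatives that give a value per gene, SEC61B being the exception, and 7 genes changed sign in at least 1. The highest over the lowest summed level among cluster sets was 1.48, against 1.58 with equal weight per cell and 1.52 with cells thinned to 7500 UMIs. The number of genes with a higher share of cells with TGFB1 was 41 thinned to 7500 UMIs, 11 not thinned and 40 thinned to 5000 UMIs, with no count over all genes beside them. No paired analysis was possible because each group has 1 library. The depth limits genes near 5 CPM, such as ERO1B and SYVN1, and the values inside cluster 1, where the TGFB1 library has 56 cells.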

Other observations

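Cells of the TGFB1 library with an IL11 UMI were set beside those without one, at 7500 UMIs per cell, since the series is about interleukin 11. The 4789 cells with IL11 had a summed level of the 46 genes of 12205 CPM and the 4541 without had 11593 CPM, a ratio of 1.05 (1.048 to 1.057). SDF2L1 had a ratio of 1.18, CREB3L2 1.15, SEC61G 1.15 and MANF 1.14. HSPA5 had a ratio of 1.03, and for DNAJB9 (1.00), ERN1 (0.981) and TRAM1 (0.983) the counting interval included 1. The genes furthest apart between the libraries were therefore not all apart between these cells: DNAJB9 was at 68.3 CPM in both.

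Depth within a library moved the set little. Cells at or above their library's median number of UMIs had 1.03 times the summed level of those below it in the untreated library, and 1.02 times in the TGFB1 library.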
